A study of Rattus norvegicus with 12 samples.

Results

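The genes of major histocompatibility complex (MHC) class II antigen presentation were followed in the mucosa of the rat small intestine. The set was a list of 8 rat genes chosen by name: the class II chain genes RT1-Ba, RT1-Bb, RT1-Da and RT1-Db1, the peptide loading genes RT1-DMa and RT1-DMb, the invariant chain gene Cd74 and the transactivator gene Ciita. Of these 8 genes, 7 had a probe annotated to them, 1 probe each, among 13336 genes with a named probe on the array. RT1-Bb, the gene of the B beta chain, matched no probe by name and was not analysed here. All 7 probes passed the filter on dim signals, among 6704 named genes that did. RT1-Ba, RT1-Da, RT1-Db1, RT1-DMa, RT1-DMb and Cd74 were detected on 12 of 12 arrays, and Ciita on 8 of 12.

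Class II molecules are pairs of an alpha and a beta chain that carry peptides from endosomes to the cell surface, where CD4+ T cells read them. The invariant chain, the product of Cd74, holds the groove of a new pair shut and guides it to the endosome, and the DM pair, made by RT1-DMa and RT1-DMb, then helps the groove exchange the last piece of the invariant chain for a peptide. Dendritic cells, macrophages and B cells make class II molecules all the time, and epithelial cells of the small intestine also make them, more so under interferon gamma. CIITA, the product of Ciita, does not bind DNA itself but switches these genes on through factors seated on the X and Y boxes of their promoters.

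The 12 arrays came from male rats of the Sprague Dawley strain (Spraque Dawley in the labels). Per the labels 6 rats were sham operated, with the bowel cut and rejoined, and 6 underwent removal of 75% of it, which models short bowel syndrome (SBS). The groups were sham ileum (3 arrays), SBS ileum (4 arrays), sham jejunum (1 array) and SBS jejunum (4 arrays), all of intestinal mucosa and each started from 200 ng of RNA. The study asked about genes related to platelet-derived growth factor, and its labels say that nucleic acid quality limited the samples. The codes 33 to 39 were read as rats, which the labels do not state outright: rat 33 gave sham ileum 1 and the sham jejunal array, rats 34 and 35 gave sham ileum 2 and 3, and rats 36 to 39 gave both the ileal and the jejunal SBS arrays 1 to 4. No source used here gives the age of the rats, the time since surgery or where along the bowel each sample was taken. The region labels were checked against markers. Gata4, a factor of proximal intestine, was detected on all 5 jejunal and 0 of 7 ileal arrays. Slc10a2, the ileal bile acid transporter, had log2 levels of 6.47 to 7.27 on ileal arrays against 4.41 to 4.96 on jejunal ones. Of 5 proximal markers listed, 4 were higher in SBS jejunum than in SBS ileum, Fabp1 only slightly (means 10.70 and 10.64). The other, Cubn, was lower, at 4.36 to 5.12 against 6.35 to 8.74. Fabp6, the ileal bile acid binding protein, had a log2 level of 13.56 on SBS jejunum 4 and 11.50 on the sham jejunal array against 5.96 to 7.15 on the other SBS jejunal arrays, and Pnlip, pancreatic lipase, had 9.12 on SBS jejunum 1, so counts are also given without SBS jejunum 4 and without rat 36.

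The promoters of 6 of the 8 genes were in the RefSeq promoter table (build GRCr8, 250 bases before to 50 after the start), and those of the 5 that also have array values are printed because these genes share a regulator and are set side by side below. Capitals mark the core of the Y box (CCAAT, or ATTGG where it lies on the other strand) and an X box pattern written AGNNACNGATG, both searched on both strands. The pattern was set with the class II promoters in view, so its presence in them is a description. RT1-Da lies on chr20:4515165-4515464 (plus strand), RT1-Db1 on chr20:4560113-4560412 (minus strand), RT1-Ba on chr20:4576807-4577106 (plus strand), Cd74 on chr18:56526956-56527255 (plus strand) and RT1-DMa on chr20:4712286-4712585 (minus strand).
RT1-Da: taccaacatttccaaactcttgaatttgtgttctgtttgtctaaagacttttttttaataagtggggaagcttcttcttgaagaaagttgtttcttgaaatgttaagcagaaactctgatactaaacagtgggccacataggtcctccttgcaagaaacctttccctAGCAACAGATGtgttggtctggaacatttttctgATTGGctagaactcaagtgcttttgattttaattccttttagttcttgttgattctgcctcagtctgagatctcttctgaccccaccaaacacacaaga
RT1-Db1: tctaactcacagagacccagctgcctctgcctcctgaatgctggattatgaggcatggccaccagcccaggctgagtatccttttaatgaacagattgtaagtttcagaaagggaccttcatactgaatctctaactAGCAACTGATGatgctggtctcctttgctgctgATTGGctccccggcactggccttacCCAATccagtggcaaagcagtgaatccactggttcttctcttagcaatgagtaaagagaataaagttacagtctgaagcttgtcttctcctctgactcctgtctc
RT1-Ba: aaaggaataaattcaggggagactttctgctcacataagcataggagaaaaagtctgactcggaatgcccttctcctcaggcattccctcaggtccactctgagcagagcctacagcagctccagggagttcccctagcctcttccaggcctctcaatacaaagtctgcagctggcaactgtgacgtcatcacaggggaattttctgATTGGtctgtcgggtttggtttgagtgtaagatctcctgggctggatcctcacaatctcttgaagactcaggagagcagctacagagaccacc
Cd74: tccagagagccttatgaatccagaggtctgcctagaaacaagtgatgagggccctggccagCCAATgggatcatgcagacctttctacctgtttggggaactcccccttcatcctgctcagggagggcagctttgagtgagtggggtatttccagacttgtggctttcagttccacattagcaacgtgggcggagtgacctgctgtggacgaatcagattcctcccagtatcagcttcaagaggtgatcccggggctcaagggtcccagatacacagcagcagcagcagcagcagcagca
RT1-DMa: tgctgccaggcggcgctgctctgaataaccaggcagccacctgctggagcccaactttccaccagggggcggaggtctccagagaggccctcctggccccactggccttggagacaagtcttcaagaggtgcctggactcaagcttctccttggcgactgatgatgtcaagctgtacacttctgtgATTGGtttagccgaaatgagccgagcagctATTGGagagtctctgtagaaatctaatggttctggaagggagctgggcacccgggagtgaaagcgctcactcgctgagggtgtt

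In RT1-Da the X box pattern began at base -83 from the start and an ATTGG at -49, with 23 bases between them. RT1-Db1 had the same arrangement, with the pattern at -113, an ATTGG at -80 and 22 bases between them, and RT1-Bb, with no probe, had it at -94 and -61, also 22 bases apart. RT1-Ba had an ATTGG at -43, RT1-DMa had 2 at -64 and -34, and Cd74 had a CCAAT at -189, all with no X box pattern in these windows. The search asked for exact letters, so an X box written otherwise would be missed and its absence is not shown. In RT1-DMa the stretch ggcgactgatg, before the first ATTGG, differs from the pattern only in its first base. Of 27457 rat promoters of the same length, 37.7% held a Y box core, 0.94% the X box pattern and 0.0401%, or 11, the pattern followed within 40 bases by the core on the opposite strand. Of those 11 promoters, 5 belonged to class II genes, namely RT1-Da, RT1-Db1, RT1-Db2, RT1-Bb and RT1-DOb, and 6 to other genes. Motifs did not overlap in the promoters printed. On chromosome 20 of that annotation RT1-Da, RT1-Db2, RT1-Db1, RT1-Ba and RT1-Bb follow each other, with the DM genes further along. Cd74 lies on chromosome 18 and Ciita on chromosome 10.

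The class II genes had their lowest levels in SBS jejunum. Levels are log2 signals after background correction and quantile normalization, on which a difference of 1 is 2-fold, and a level of a probe is set only against other levels of that probe. RT1-Da, the alpha chain of the D molecule (the rat relative of human HLA-DR), had log2 levels of 13.71, 13.81 and 14.00 in sham ileum, 13.63, 13.81, 13.81 and 13.56 in SBS ileum, 13.56 in sham jejunum and 11.36, 11.67, 12.30 and 11.32 in SBS jejunum. The SBS jejunal arrays stood below all 8 others, which lay between 13.56 and 14.00. RT1-Db1, the beta chain of the same molecule, had log2 levels of 11.17, 10.78 and 11.04 in sham ileum, 10.47, 11.01, 11.24 and 10.70 in SBS ileum, 10.38 in sham jejunum and 8.01, 8.20, 8.97 and 8.38 in SBS jejunum. On SBS jejunum both D chain genes were highest on array 3. RT1-Db1 has a close relative, RT1-Db2, without a probe matched by name here, and whether the RT1-Db1 probe also binds its transcript was not tested.

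RT1-Ba, the alpha chain of the B molecule (the rat relative of human HLA-DQ), had log2 levels of 11.16, 11.36 and 11.10 in sham ileum, 11.22, 10.43, 9.70 and 10.95 in SBS ileum, 10.69 in sham jejunum and 8.20, 7.51, 7.93 and 8.19 in SBS jejunum. It varied most within SBS ileum, where its SD was 0.67 (n = 4), and its lowest ileal array, from rat 38, was the one highest for RT1-Db1. Cd74, the invariant chain, had log2 levels of 10.79, 10.64 and 10.54 in sham ileum, 9.71, 9.91, 10.31 and 10.00 in SBS ileum, 9.84 in sham jejunum and 7.84, 7.18, 7.89 and 7.70 in SBS jejunum. Every SBS ileal array lay below every sham ileal array for Cd74, and every SBS jejunal array lay further down.

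RT1-DMb, the beta chain of the peptide loading pair, had log2 levels of 9.62, 9.74 and 9.83 in sham ileum, 9.02, 9.43, 9.71 and 9.47 in SBS ileum, 9.45 in sham jejunum and 7.54, 7.95, 8.49 and 8.31 in SBS jejunum. RT1-DMa, its alpha chain, had log2 levels of 7.40, 7.57 and 7.33 in sham ileum, 7.42, 6.89, 7.23 and 7.26 in SBS ileum, 7.21 in sham jejunum and 7.10, 6.55, 6.66 and 6.45 in SBS jejunum. RT1-DMa was the member whose SBS jejunal values overlapped the ileal ones, through SBS jejunum 1 and SBS ileum 2. Ciita, the transactivator, had log2 levels of 5.61, 5.52 and 5.56 in sham ileum, 4.81, 4.97, 5.62 and 5.52 in SBS ileum, 5.32 in sham jejunum and 4.36, 4.35, 4.32 and 4.40 in SBS jejunum. It was detected on 0 of 4 SBS jejunal arrays, so its level there is not well above background and it passed the filter through the other groups.

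Put in order of the group means, sham ileum was highest for all 7 genes and SBS jejunum lowest. The means of Cd74 were 10.66 ± 0.13 (SD, n = 3) in sham ileum, 9.98 ± 0.25 (SD, n = 4) in SBS ileum, 9.84 in sham jejunum (n = 1) and 7.65 ± 0.33 (SD, n = 4) in SBS jejunum. SBS ileum and sham jejunum are the neighbours that did not differ beyond their spread for Cd74, RT1-Ba, RT1-DMa, RT1-DMb and Ciita, since the lone sham jejunal value lay inside the SBS ileal range. For RT1-Da it equalled the lowest SBS ileal value, and for RT1-Db1 it lay just below it, at 10.38 against 10.47. In the deposited linear signals the same probes ran, for RT1-Da, from 11136.6 to 16051.5 on the 8 other arrays and from 2817.3 to 4529.9 in SBS jejunum.

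**Figure D1:**
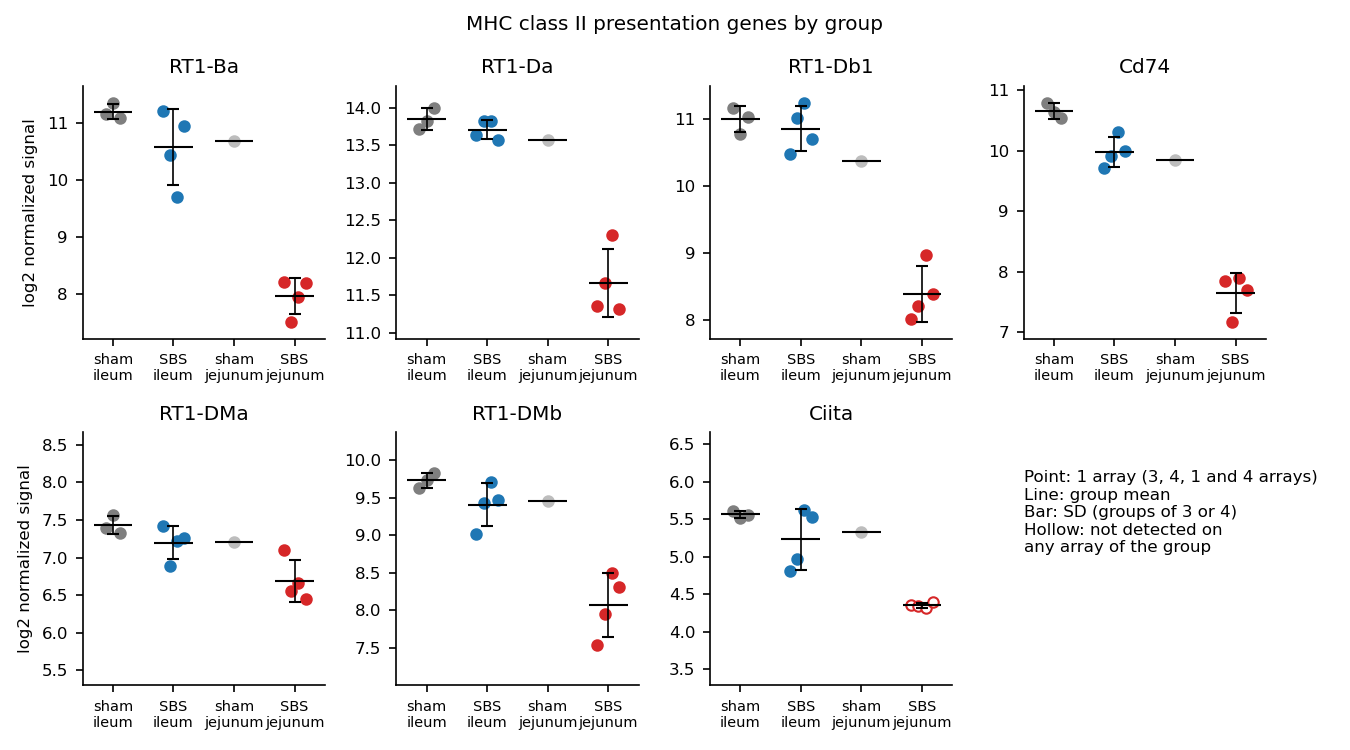
Log2 normalized signal (vertical axes) of 7 class II presentation genes in the 4 groups, with a point per array, a line at the group mean and a bar of 1 SD where a group has 3 or 4 arrays. The mean of SBS jejunum (red) is the lowest in each panel, with points from 7.18 to 7.89 for Cd74. For RT1-DMa its points overlap those of SBS ileum. The Ciita points of SBS jejunum are hollow because the probe was detected on 0 of 4 arrays there.

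Between the gut regions of resected rats, 6 of 7 class II genes fell from ileum to jejunum (limma, adjusted p under 0.05), while 4.39% of all 9137 probes were called lower. These 6 include Ciita, which was detected on 0 of 4 SBS jejunal arrays. The B and D chain genes and the invariant chain fell by the most. Cd74 fell 5.03-fold, a log2 difference of -2.33 ± 0.17 (SE; adjusted p = 1.68e-05), and RT1-Db1 fell 5.51-fold, a log2 difference of -2.46 ± 0.22 (adjusted p = 3.59e-05). RT1-Da fell 4.12-fold, a log2 difference of -2.04 ± 0.19 (adjusted p = 5.58e-05), and RT1-Ba fell 6.15-fold, a log2 difference of -2.62 ± 0.28 (adjusted p = 0.00014). The DM genes had smaller differences: RT1-DMb fell 2.52-fold, a log2 difference of -1.34 ± 0.20 (adjusted p = 0.00141), and RT1-DMa had a difference of -0.51 ± 0.16 (adjusted p = 0.0736). Ciita fell, with a log2 difference of -0.87 ± 0.17 (SE; adjusted p = 0.00648). Against the lowest detected signals of the SBS jejunal arrays it was at least 1.37-fold lower there with this background correction.

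The groups did not overlap for 6 of the 7 genes, RT1-DMa being the exception, while 6.42% of all probes were lower without overlap. For Ciita, 1 of these 6, the SBS jejunal values were background levels. Its SBS ileum 1 level of 4.81 lay below the lowest detected level on SBS jejunum 1, 4.90. The median log2 difference of the 7 genes was -2.04, beside -0.01 over all 9137 probes, 90% of which lay between -0.60 and 0.65. Without SBS jejunum 4, 6 genes were called, and without rat 36, from which SBS jejunum 1 came, all 7. With the rat as a replicate block RT1-DMa was also called (-0.51, adjusted p = 0.0309). With a background offset of 50 or without background correction Ciita's difference shrank by over 1.5 times, to as little as -0.41, and was still called.

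Since rats 36 to 39 gave both regions, the difference could be read within each rat. RT1-Ba was lower in jejunum than in ileum by log2 differences of -3.02, -2.93, -1.77 and -2.77 in rats 36, 37, 38 and 39. The same differences in the same order were -2.27, -2.15, -1.52 and -2.24 for RT1-Da and -2.46, -2.81, -2.27 and -2.32 for RT1-Db1. The smallest gap of these 3 chain genes was that of rat 38 each time. Cd74 had within-rat differences of -1.86, -2.74, -2.42 and -2.30, and the smallest was that of rat 36. RT1-DMb ranged from -1.49 to -1.16 and RT1-DMa from -0.82 to -0.32, so each of the 6 genes detected on all 12 arrays was lower in jejunum in 4 of 4 rats. Ciita was not detected on the SBS jejunal arrays, and in rat 36 its ileal level of 4.81 lay below the lowest detected level on the jejunal array, 4.90, so no fall can be stated in that rat.

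The sham rat 33 also gave both regions, with jejunum minus ileum at -0.95 for Cd74, -0.79 for RT1-Db1, -0.47 for RT1-Ba, -0.29 for Ciita, -0.19 for RT1-DMa, -0.17 for RT1-DMb and -0.15 for RT1-Da. For each of the 6 genes detected on all 12 arrays this gap was smaller than that of every SBS rat, which is 1 sham rat against 4 and carries no test of its own.

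**Figure D2:**
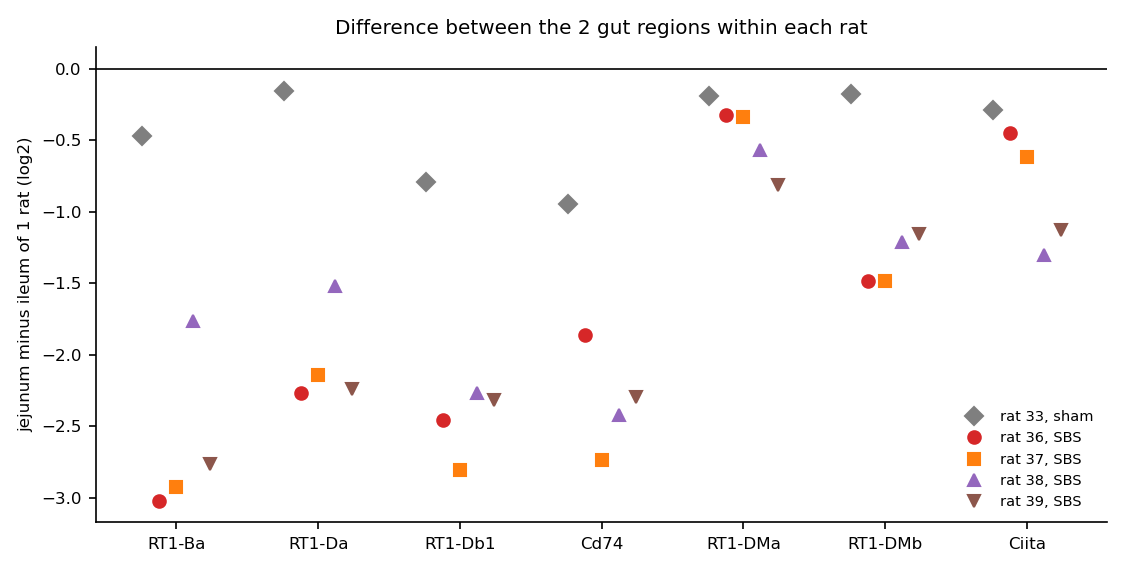
Jejunal minus ileal log2 level within a rat (vertical axis) for each class II presentation gene, with the 4 SBS rats as coloured symbols and the sham rat 33 as a grey diamond. For the 6 genes detected on all 12 arrays the sham rat lies nearest to 0, at -0.15 for RT1-Da beside -2.27 to -1.52 in the SBS rats, while the SBS points of Ciita rest on jejunal levels that were not detected.

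**Figure D3:**
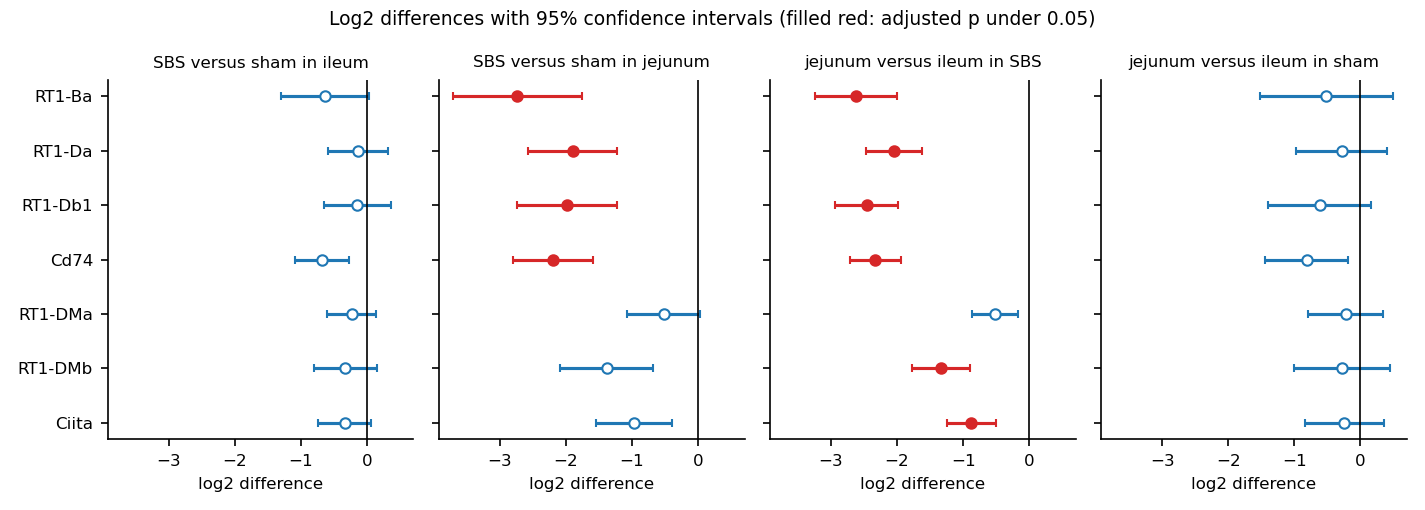
Log2 differences of the 7 class II presentation genes with 95% confidence intervals (horizontal axes) in 4 comparisons, filled red where the adjusted p was under 0.05. In ileum the 7 differences between SBS and sham run from -0.67 to -0.14 and 0 are filled, while in SBS jejunum against SBS ileum 6 are.

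In sham rats the region comparison called 0 of 7 class II genes in limma, while 0.624% of all probes were called. At an unadjusted p under 0.05 it was 1 of 7, Cd74, and no share of all probes was taken at that threshold. Cd74 differed by -0.81 between sham jejunum and sham ileum (95% interval -1.44 to -0.19, adjusted p = 0.333). The other 6 differences ran from -0.62 for RT1-Db1 to -0.22 for RT1-DMa. The 95% interval of RT1-Da ran from -0.97 to 0.41, that of RT1-Db1 from -1.39 to 0.16 and that of RT1-Ba from -1.52 to 0.50. These 3 intervals and that of Cd74 left out the differences estimated between these regions in SBS rats, and that of RT1-DMa (-0.79 to 0.35) held it. The test of one region gap against the other is the difference of effects given last. With 1 sham jejunal array the spread was taken from the other groups. That array was lower than all 3 sham ileal arrays for 7 of 7 genes, as were 34.2% of all probes.

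In jejunum, 4 of 7 class II genes were lower in SBS rats than on the sham array, while 0.832% of all probes were called lower. RT1-Ba fell 6.67-fold, a log2 difference of -2.74 ± 0.45 (SE; adjusted p = 0.0122), and Cd74 fell 4.56-fold, a log2 difference of -2.19 ± 0.28 (adjusted p = 0.00346). RT1-Db1 fell 3.96-fold, a log2 difference of -1.99 ± 0.34 (adjusted p = 0.0169), and RT1-Da fell 3.73-fold, a log2 difference of -1.90 ± 0.31 (adjusted p = 0.0116). The other 3 did not pass, with RT1-DMb at -1.38 (adjusted p = 0.0644), Ciita at -0.97 (adjusted p = 0.119) and RT1-DMa at -0.52 (adjusted p = 0.462). With the rat as a random block RT1-DMb was called (-1.42, adjusted p = 0.0257). All 7 genes were lower on the 4 SBS arrays than on the sham array, as were 19.9% of all probes.

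This comparison rests on 1 sham jejunal array, and it shares its SBS arrays with the region comparison. On that sham array the ileal gene Fabp6 was at 11.50, against 5.96 to 7.15 on SBS jejunum 1 to 3 and 13.56 on SBS jejunum 4. Slc10a2, at 4.59, was within its jejunal range. Where each sample was taken is not given, so position along the bowel and resection cannot be told apart here or in the difference of effects. The median log2 difference between SBS and sham jejunum was -1.90 for the 7 genes and 0.01 for all probes. In a fit of the 5 jejunal arrays alone, only RT1-Ba was called (adjusted p = 0.0462), with Cd74 at 0.0783, RT1-Db1 at 0.125 and RT1-Da at 0.168. With no filter on dim probes RT1-Ba (adjusted p = 0.0525) and RT1-Db1 (0.0598) were no longer called, nor was RT1-Db1 with median scaling (0.0698). Without SBS jejunum 4, 4 genes were called, and without rat 36, 5.

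In ileum, 0 of 7 class II genes were called between SBS and sham in limma, while 2.94% of all probes were called. At an unadjusted p under 0.05 it was 1 of 7, Cd74, and no share of all probes was taken at that threshold. Cd74 had the lowest adjusted p, with a log2 difference of -0.67 ± 0.19 (SE, 95% interval -1.09 to -0.26, adjusted p = 0.084). It was also the only member whose ileal groups did not overlap, which 8.43% of all probes showed in the same direction. RT1-Da differed by -0.14 (95% interval -0.59 to 0.32) and RT1-Db1 by -0.14 (-0.65 to 0.37). Their intervals left out a fall as large as the 3.73-fold and 3.96-fold ones in jejunum. RT1-Ba differed by -0.63 with an interval from -1.30 to 0.04, RT1-DMb by -0.32 (-0.80 to 0.16), RT1-DMa by -0.23 (-0.61 to 0.15) and Ciita by -0.33 (-0.73 to 0.06). Ciita was low on SBS ileum 1 and 2, at 4.81 and 4.97, while the 2 other SBS ileal arrays lay within or just above its sham range.

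The effect of resection in jejunum minus that in ileum was called for 0 of 7 genes in limma, while 0.197% of all probes were called. At an unadjusted p under 0.05 it was 5 of 7, and no share of all probes was taken at that threshold. The differences of effects were -2.11 for RT1-Ba (adjusted p = 0.25), -1.84 for RT1-Db1 (0.177), -1.76 for RT1-Da (0.127), -1.52 for Cd74 (0.158) and -1.06 for RT1-DMb (0.715). For RT1-Da the 95% interval ran from -2.57 to -0.95, for RT1-DMa, at -0.29, from -0.96 to 0.38, and for Ciita, at -0.63, from -1.34 to 0.07. Without SBS jejunum 3 RT1-Da was called (-1.97, adjusted p = 0.0103), and with the rat as a random block RT1-Da (adjusted p = 0.0313) and RT1-Db1 (0.0468) were.

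Within groups the class II genes did not vary as a unit. Over 11 arrays in groups of 3 or 4, the correlations of deviations from the group means ranged from -0.62 to 0.82 over the 21 pairs of genes, with a median of 0.14. RT1-DMb and RT1-Db1 deviated together (r = 0.82), as did RT1-Da and RT1-Db1 (r = 0.72), whereas RT1-Ba ran opposite to RT1-Db1 (r = -0.58) and RT1-DMa opposite to RT1-DMb (r = -0.62). These arrays share rats in pairs and are not independent, so the values are a description. Over all 12 arrays, with the group differences left in, the 21 correlations were 0.67 to 0.98 with a median of 0.90.

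The genes whose log2 levels over the 12 arrays were most like the mean class II profile were named by the size of Pearson's r. They were Prkce (r = 0.98, protein kinase C epsilon), Slc1a1 (0.97, a glutamate transporter), Ctsw (0.97, cathepsin W), Sesn1 (0.97), Naaladl1 (0.97), Tec (0.97, a kinase of immune cells), Leprot (0.97) and Aoc1 (0.96, diamine oxidase). The 12 arrays share rats and fall into groups, so these values mainly follow the group means. In SBS jejunum against SBS ileum the log2 differences were -3.21 for Naaladl1, -2.22 for Slc1a1 and -2.02 for Aoc1. Because the genes were picked on these same arrays, low levels in SBS jejunum follow from the choice and are a description. Prkce was detected on 8 of 12 arrays, with levels of 4.44 to 4.76 in SBS jejunum, near background. With median scaling 5 of these 8 genes stayed among the 8 most alike.

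The other class II chain genes on the array lay near background. RT1-DOb, the beta chain of the DO molecule, which restrains DM and is made mainly by B cells, had log2 levels of 5.16, 5.66 and 5.92 in sham ileum and 4.96 in sham jejunum. On the 8 SBS arrays it was between 4.23 and 4.39 and detected on 0. It was at least 1.77-fold lower in SBS than in sham ileum (adjusted p = 0.00391), and it passed the filter only through the 4 sham arrays. RT1-DOa, its alpha chain, was called in 0 of the 5 comparisons. RT1-Ha fell between the SBS regions (log2 difference -0.41, adjusted p = 0.0372) and was detected on 3 of 12 arrays. With the replicate block its adjusted p was 0.0522, and most other alternatives also ended the call.

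Of 10 regulators of class II transcription on the array, 5 passed the filter, and Ciita was the only one called between the SBS regions or in any comparison. Ciita was detected on 0 of 4 SBS jejunal arrays and passed the filter through the other groups, so its call is set against a background level. The other 4 kept regulators had log2 differences above 0 between the SBS regions, up to 0.20, and the median of the 5 was 0.10. Rfx5 and Rfxap, whose products sit on the X box, Nfya, a subunit of the Y box factor, Irf8 and Spib were detected on 0 arrays.

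Endosomal processing genes did not follow the class II chains as a list. Of 9 measured, 1 fell and 1 rose between the SBS regions, with a list median of 0.19. Ctsh, cathepsin H, fell, with a log2 difference of -0.96 ± 0.17 (SE; adjusted p = 0.00339). Ifi30, the thiol reductase that opens disulfide bonds of antigens, rose, with a log2 difference of 0.61 ± 0.12 (SE; adjusted p = 0.00699). In each of the other 4 comparisons 0 of 9 were called, with 1 to 3 at an unadjusted p under 0.05.

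Interferon gamma signalling genes were lower in SBS jejunum than in SBS ileum for 3 of 9 measured, with a list median of -0.69, and 0 of 9 were called in each of the other 4 comparisons, with 1 or 2 at an unadjusted p under 0.05. Irf1, a transcription factor induced by interferon gamma, fell, with a log2 difference of -0.85 ± 0.17 (SE; adjusted p = 0.00731). The chemokine genes Cxcl10 and Cxcl9 fell too, with log2 differences of -1.21 each (adjusted p = 0.00536 and 0.0127). Ifng, the gene of interferon gamma itself, was detected on 1 of 12 arrays, in SBS ileum.

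Of the class I presentation genes, which show peptides to CD8+ T cells and partly lie in the same region of chromosome 20, 4 of 17 fell between the SBS regions, with a list median of -0.35. Tap1, a subunit of the peptide transporter, had a log2 difference of -0.87 (adjusted p = 0.0108) and Tapbp, tapasin, one of -0.91 (adjusted p = 0.0357). The class I genes RT1-CE5 (at least 1.35-fold lower, adjusted p = 0.0466) and RT1-N3 (-0.51, adjusted p = 0.0454) were the others that fell, and their calls were lost under several alternatives. RT1-CE5 was detected on 0 and RT1-N3 on 1 of the 4 SBS jejunal arrays, so their levels there lay near background. RT1-N3 was also lower in SBS than in sham ileum (-0.75, adjusted p = 0.0248) and jejunum (-1.45, adjusted p = 0.0103). In the jejunal comparison, where 4 class II genes fell, it was the only class I gene of 17 called.

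Of the costimulation genes, Cd83 and Icam1 were the 2 that passed the filter, and Cd80, Cd86 and Cd274 were detected on 0 arrays. Both fell with resection in ileum, where the class II genes were not called: Cd83, a surface protein of mature dendritic cells and B cells that stabilises class II, had a log2 difference of -2.49 ± 0.45 (SE) and Icam1 one of -0.88 ± 0.18 (adjusted p = 0.0138 and 0.0264). Cd83 was also lower in SBS jejunum, at 6.11 to 7.33 against 9.77 on the lone sham jejunal array. In ileum it was between 9.83 and 11.00 in sham rats and between 7.04 and 9.04 in SBS rats, without overlap. Its call was lost without sham ileum 2 (adjusted p = 0.0887) or sham ileum 3 (0.0918), and with no filter on dim probes (0.0594). Icam1 was detected on 1 of 4 SBS ileal arrays, so its level there lay near background.

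**Figure D4:**
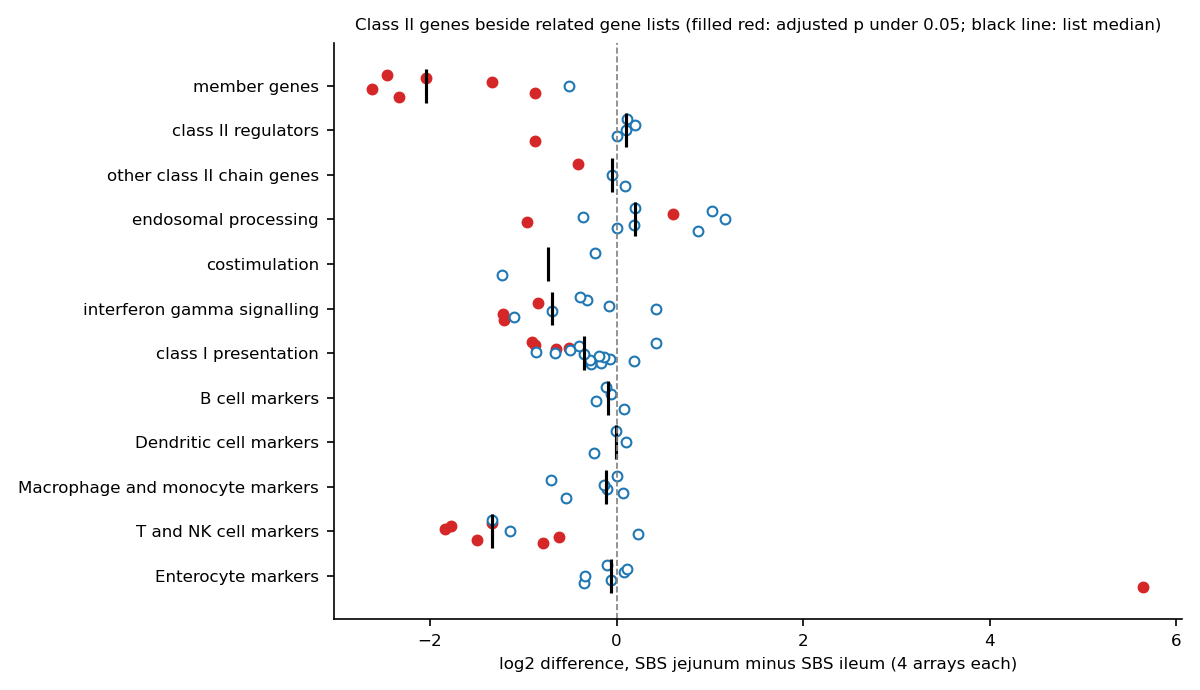
Log2 difference between SBS jejunum and SBS ileum (horizontal axis) for each measured gene of the class II set and of related gene lists, with a point per gene, filled red where called, and a black line at the list median. The median of the class II genes is -2.04, that of T and NK cell markers -1.33 and that of B cell and dendritic cell markers -0.09 and -0.01. The B cell markers Ms4a1 and Cr2 and the dendritic cell marker Batf3 lay near background in both groups, which leaves little room for a fall. Ciita is plotted both with the class II genes and with the regulators.

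Markers of the cells that carry class II molecules were set beside these results. In bulk mucosa, fewer cells of a type and less RNA per cell cannot be told apart. The summed linear signal of the 7 class II genes was 20814 to 23269 in sham ileum, 17665 to 19961 in SBS ileum, 16881 in sham jejunum and 3762 to 6499.8 in SBS jejunum. Sums were taken over normalized levels put back on the linear scale, and most of the class II sum was RT1-Da in each of the groups. The 4 measured B cell markers summed to 209 to 458, 95.8 to 139, 243 and 98.8 to 106 in these groups, and Pax5, Cd22, Fcer2 and Blnk were detected on 0 arrays. Of these 4 markers 3 fell with resection in ileum (Ms4a1, Cd79b and Cr2), where 0 class II genes were called. In jejunum, where class II genes also fell, the 4 markers differed by -1.93 to -0.01 from the lone sham array, with a median of -1.19. Between the SBS regions, where 6 class II genes fell, 0 markers were called, with 0 of 4 also at an unadjusted p under 0.05. Ms4a1 and Cr2 were each detected on 1 of 4 SBS ileal and 0 of 4 SBS jejunal arrays, and Blk on 1 and 3. Levels so near background leave little room for a further fall between these regions.

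The 3 measured dendritic cell markers summed to between 108 and 140 in all 4 groups, and 0 of 3 were called in any of the 5 comparisons. At an unadjusted p under 0.05 it was also 0, and Flt3, Xcr1, Clec9a and Cd209a were detected on 0 arrays. Of the 3, Ccr7 was detected on 12 arrays, at log2 levels of 5.96 to 6.45. Batf3 was detected on 1 of 4 SBS ileal and 0 of 4 SBS jejunal arrays, so its levels there leave little room for a fall. The 6 measured macrophage and monocyte markers summed to 662 to 931, 332 to 1139, 822 and 282 to 610, with 0 of 6 called in any comparison and 1 at an unadjusted p under 0.05 between the SBS regions. Adgre1 and Itgam were detected on 0 arrays.

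T and NK cell markers were lower in SBS jejunum together with the class II genes: 6 of 9 fell between the SBS regions, with a median of -1.33, and 0 of 9 were called in the other 4 comparisons, with 1 to 3 at an unadjusted p under 0.05. Cd8a, a coreceptor of cytotoxic T cells, had a log2 difference of -1.84 ± 0.32 (SE) and Lck, a kinase of T cell receptor signalling, one of -1.34 ± 0.29 (adjusted p = 0.00312 and 0.0115). The list summed to 1070 to 1737 in sham ileum, 1433 to 2154 in SBS ileum, 970 in sham jejunum and 769.8 to 1388 in SBS jejunum, and Cd4 was detected on 0 arrays. In SBS jejunum much of this sum was Cd3g, a CD3 chain of the T cell receptor complex, whose log2 level ran from 8.15 to 9.81 over the 12 arrays and which did not pass between the SBS regions (0.23, adjusted p = 0.773). Enterocyte markers, 7 measured, had a median of -0.06 between the SBS regions, and 1 of them, Alpi, was called and rose. Their sum was 28689 to 32985 in sham ileum, 29650.2 to 35797 in SBS ileum, 39314 in sham jejunum and 31331 to 44947 in SBS jejunum. The part of these cell types in the class II levels was not tested.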

How the data were processed

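Gene expression was measured on the Illumina RatRef-12 BeadChip, per the labels' protocols, which also name Rat Quad chips. The deposited signal table held a bead intensity on a linear scale and a detection p-value per probe and array. The deposited series matrix held log2 values, found to be quantile normalized by the authors without background correction (largest difference 5e-06). The scanner software is not given in the sources used here. Probes detected per array numbered 7041 to 8821 of 22517, and median signals were 52.1 to 62.5. The number of arrays limits the precision.

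Intensities were background corrected (normexp from the detection p-values, offset 16), put on a log2 scale and quantile normalized in R 4.3.3 with limma 3.58.1. The filter kept the 9137 probes that had a detection p under 0.05 on 3 or more of the 12 arrays. A model with 1 mean per group over 12 arrays was fitted (lmFit and eBayes), two-sided, and p-values were adjusted over all 9137 kept probes (Benjamini-Hochberg), with a call at adjusted p under 0.05. SE is that of the model. The spread of the sham jejunal group, with 1 array, was taken from the other groups. The labels do not say that the samples of a group are separate animals, and the p-values measure the spread between these samples. The fit was tested on simulated data.

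Symbols came from the array annotation: 13787 probes had 1 gene symbol, 0 several and 8730 none. Not-detected levels were replaced by the mean of the lowest detected signals of those arrays for a bound. The members, lists and comparisons were chosen with earlier results of these data known. All members are named, up to 4 called genes per list, and the 8 genes most like the class II profile, with the region and library checks beside them. Alternatives were the series matrix, offset 50, median scaling, no filter, the compared groups alone, the rat as a random block, the replicate number as a block, array weights, each array left out, and rat 36 left out.

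In SBS rats same-numbered ileal and jejunal arrays share a rat code, and were taken as pairs for that reason. Their deviations from the group means correlated by 0.66, 0.467, 0.193 and 0.444 over probes. Arrays with different numbers were not correlated, so these values do not test the pairing.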

Additional observations from a re-analysis of the deposited data

Results flagged for a closer look

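No class II gene stood out by these rules. For 37 genes of the set and of the lists, 74 groups of 4 arrays were tested for a lone high or low array, and chance gives about 1 flag in 20 groups. Fabp6 had a lone high array in SBS jejunum, array 4 at a log2 level of 13.56, with a gap of 0.844 of the group's range. In SBS ileum Fabp6 had a ratio of 1, array 3 at 14.43 against 3 arrays at a tied value set by the quantile normalization. The effect of resection on Cubn, the intrinsic factor receptor, differed between jejunum and ileum by -6.44 on the log2 scale (adjusted p = 0.00898, limma interaction term), with 1 sham jejunal array at 9.66 against 4.36 to 5.12 in SBS jejunum.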

How the results depend on the processing

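Of the 37 genes refitted under the alternatives, which leave out those named by likeness, none changed the sign of a called log2 difference, and no class II gene changed the sign of any. In ileum the count of 0 became 1 with array weights (Cd74, adjusted p = 0.04) and ranged from 0 to 1 with 1 array left out, the 1 being Cd74 without SBS jejunum 2 (0.0464), whose removal lowers the shared spread. In jejunum the count of 4 became 2 with no filter and 1 with the compared arrays only, and 3 to 5 elsewhere. For the difference of effects the count of 0 became 1 with array weights, 2 with the rat as a random block, and ranged from 0 to 1 with 1 array left out, the 1 being RT1-Da without SBS jejunum 3. Between the SBS regions the count was 6 or 7 throughout, and in sham rats 0. RT1-DMb passed in jejunum with the random block (adjusted p = 0.0257), with array weights (0.0311), without SBS jejunum 3 (0.0458) and without rat 36 (0.0285). With the replicate block, which gave 0 genes in ileum and 7 between the SBS regions, the call of RT1-DMa was the only one of the 7 class II genes to change. The replicate block could not be fitted to the jejunal and sham region contrasts, whose groups share fewer than 2 numbers, and was not run for the difference of effects. Chip as a block was not run, since the files used here give no chip. The causes of these changes were not tested.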

Other observations

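The class I gene RT1-A2, next to the class II region on chromosome 20, followed the rat and not the group. Its log2 level was 4.76 and 4.37 on both arrays of rat 33 and 4.58 and 4.40 on both arrays of rat 38, beside 7.64 to 10.23 on the 8 arrays of the other rats. Sprague Dawley rats are outbred, and whether rats differed in this gene's sequence under the probe was not tested. Ranked by deviations from group means over 11 arrays, the genes most like the class II mean were led by Sele (r = 0.91), with levels near background, and 0 of 8 stayed among the 8 with median scaling.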
